A study of Mus musculus with 12 samples.

Results

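The Rab family was examined in bulk RNA sequencing of brain cells sorted by their fluorescence. The 5 donors were old p16-3MR males on a C57BL/6 background, of 113, 115, 116, 116 and 116 weeks of age (mice 1 to 5). Every mouse carried the transgene, which places a red fluorescent protein (RFP) under the p16 promoter, so that both sorted populations share this genotype. From each mouse, viable cells with low RFP (RFPLow, labelled RFPneg) and with high RFP (RFPHigh, labelled RFPpos) were sorted without a gate for cell type, which gave 5 samples of each population paired by mouse. A further 2 single-cell samples were not analysed here. Members were the protein-coding genes whose symbol is Rab followed by a number and at most 1 letter and 1 digit, which leaves out Rab effectors. This rule found 59 of the 47643 genes in the count table, and 56 of them had at least 1 count.

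Rab proteins are small GTPases that mark the membranes of the cell. In the GTP-bound form each sits on a particular compartment, such as the Golgi, an endosome, a lysosome or a secretory vesicle, and recruits tethers, motors and other effectors there. Exchange factors (GEFs) switch Rab proteins on, GTPase-activating proteins (GAPs) switch them off, and escort and recycling factors move them between membrane and cytosol. In microglia, the resident phagocytes of the brain, they serve the uptake and degradation of debris and the secretion of cytokines, but they are also used by every other cell type of the brain.

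The summed share of counts on Rab genes overlapped between the populations, and only *Rab14* passed the main test between them. That call was lost without mouse 2, 3 or 5, with DESeq2, with counts thinned to the smallest library and with every counted gene in the fit. *Rab18* was called lower with edgeR's likelihood ratio test, limma or thinned counts, but not in the main test. Of the 59 Rab genes, 20 had enough counts to be tested, 1 was called higher in RFPHigh (*Rab14*) and 0 lower, against 10.1% and 11.6% of all genes tested. By median log2 fold change, the tested Rab genes of secretion (0.59) lay highest and those of the endoplasmic reticulum and Golgi (−0.23) lowest, and 0 genes of these groups passed the test. These medians cover 4 of 14 and 5 of 16 members, those with enough counts. Over all members, the summed share was higher in RFPHigh in 2 of 5 mice for secretion and in 1 of 5 for the endoplasmic reticulum and Golgi. Within the *Rab6a* and *Rab6b* pair, the share of *Rab6a* was lower in RFPHigh in 5 of 5 mice, with an exact permutation p of 0.0625 (0.188 adjusted over 3 families), and the other 2 families had p = 0.938.

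The libraries were shallow. Between 177287 and 415834 counts fell on genes per sample, so that 1 count is worth 2.40 to 5.64 CPM (the count relative to the total counts of its library, before TMM scaling), and the levels of single samples below are CPM after TMM scaling, edgeR's correction for library composition. The Rab genes together had 579 to 1410 counts per sample. Each count is 1 tag near the 3′ end of a transcript, and levels were therefore not divided by gene length. Counts assigned to no gene took 34.9% ± 2.24 (SD, n = 5) of all counts in RFPLow and 41.5% ± 4.27 (SD, n = 5) in RFPHigh. The 20 microglia genes used as a reference took 1.46% to 2.25% of counts in RFPLow and 3.25% to 4.27% in RFPHigh. The 12 endothelial genes took 0.214% to 0.889% and 0.0166% to 0.0459%, and the 10 oligodendrocyte genes 0.125% to 0.360% and 0.0169% to 0.0364%, in the same order. The summed share of the 10 astrocyte genes overlapped between the populations, with 0.397% to 0.613% in RFPLow and 0.0980% to 0.633% in RFPHigh. Of the 9 astrocyte genes tested, 7 had a negative log2 fold change, with a median of −0.61. Among them 2 were called lower and 0 higher, against 11.6% and 10.1% of all genes tested. Of the 10, 1 was higher and 2 were lower in RFPHigh in every mouse. Mural cell genes (0.0238% to 0.0525% and 0.00135% to 0.0112%), neuron genes (0.0229% to 0.0313% and 0.00279% to 0.0166%) and monocyte and neutrophil genes (0.225% to 0.655% and 3.99e-04% to 0.0170%) were lower in RFPHigh in 5 of 5 mice. Genes of other brain macrophages overlapped, with 0.0168% to 0.0217% and 0.0144% to 0.0311%. *Opalin*, *Abcc9*, *Kcnj8*, *Tagln*, *Ly6c2* and *Ly6g* of these lists were at 0 counts in RFPHigh. The marker shares thus moved with the population, and their part in the Rab results was not tested. In such bulk samples, fewer cells of a type and less RNA per cell cannot be told apart.

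The Rab promoters were examined for letters that match known factors. RefSeq promoter windows of 300 bases, 250 before a transcript start and 50 after it, were found for 48 of the 59 Rab genes on GRCm38.p6. GAGGAAGT, letters bound by the myeloid factor PU.1, was found on either strand in the windows of *Rab32* and *Rab2b*, which are 3.33% of 60 Rab windows against 3.20% of all 32851 windows. CACGTG, the E-box bound by TFEB and related factors, was found for *Rab27a*, *Rab20*, *Rab21*, *Rab23*, *Rab24* and *Rab5a*, 10.0% of Rab windows against 7.15% of all. TGACTCA, the AP-1 letters, was found for *Rab15*, *Rab34* and *Rab39b*, 5.0% of Rab windows against 5.20% of all. These matches are descriptions of the sequence and not sites. Up to 250 bases before a RefSeq transcript start are shown for *Rab14*, the only member that passed the test, and for *Rab32* and *Rab27a*. Of the 18 tested Rab genes with a window, only *Rab32* and *Rab27a* had a match. Both were higher in RFPHigh in 5 of 5 mice, as was *Rab8b*, which is not shown. The E-box letters are in capitals in *Rab27a*. The windows are chr2:35201121-35201370 on the minus strand, chr10:10558266-10558457 on the minus strand and chr9:73063898-73064147 on the plus strand, in this order. In *Rab32*, GENCODE starts the gene upstream of RefSeq, and the 58 bases that it places in the first exon are not shown. The *Rab27a* window lies 19.0 kb inside the gene as GENCODE draws it, before the second of 2 RefSeq starts and outside GENCODE exons of *Rab27a*.
Rab14: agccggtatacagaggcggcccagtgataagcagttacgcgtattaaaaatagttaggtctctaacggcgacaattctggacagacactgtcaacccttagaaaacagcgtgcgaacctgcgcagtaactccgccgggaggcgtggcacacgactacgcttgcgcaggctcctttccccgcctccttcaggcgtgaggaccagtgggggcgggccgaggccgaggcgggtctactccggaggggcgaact
Rab32: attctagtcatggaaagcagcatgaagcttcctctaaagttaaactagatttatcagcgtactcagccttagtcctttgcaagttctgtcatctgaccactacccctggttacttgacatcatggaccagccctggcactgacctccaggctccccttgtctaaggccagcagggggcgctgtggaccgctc
Rab27a: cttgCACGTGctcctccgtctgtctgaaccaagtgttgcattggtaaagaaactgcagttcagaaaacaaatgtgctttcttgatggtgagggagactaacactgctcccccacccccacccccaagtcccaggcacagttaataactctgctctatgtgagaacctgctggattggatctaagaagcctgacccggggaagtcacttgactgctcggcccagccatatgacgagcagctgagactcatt
None of the searched letters was found in the *Rab14* window. Counted from the RefSeq start, the *Rab32* match began at −43, in the bases not shown, and the *Rab27a* match at −246 from the internal start.

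The first question was whether the family as a whole took a different part of the transcripts in the 2 populations. The 59 Rab genes took 0.327%, 0.355%, 0.339%, 0.326% and 0.324% of the counts in the RFPLow samples of mice 1 to 5. In the RFPHigh samples they took 0.279%, 0.323%, 0.373%, 0.352% and 0.292%. The populations overlapped, and the RFPHigh sample was higher in 2 of 5 mice. The means were 0.334% ± 0.0133 (SD, n = 5) in RFPLow and 0.324% ± 0.0394 (SD, n = 5) in RFPHigh, a difference of −0.0105 percentage points, which lay between −0.0215 and −0.00118 with a mouse left out. As a share of all counts, those on no gene included, they were 0.216% ± 0.0153 and 0.189% ± 0.0313 (SD, n = 5 each). On this base the difference was −0.0275 percentage points, and the RFPHigh sample was higher in 1 of 5 mice. Rab genes of the endoplasmic reticulum and Golgi took 0.116% ± 0.00394 (SD, n = 5) in RFPLow and 0.0953% ± 0.0196 (SD, n = 5) in RFPHigh, and were higher in RFPHigh in 1 of 5 mice. Those of the recycling endosome, with *Rab14* among them, took 0.0727% ± 0.00900 (SD, n = 5) and 0.0809% ± 0.00753 (SD, n = 5), and were higher in RFPHigh in 4 of 5 mice. This rise rests on *Rab14* (log2 fold change 0.53). Of the other recycling members, only *Rab35* (0.17) had more counts in RFPHigh than in RFPLow. *Rab11a* (−0.40) and *Rab11b* (−0.34), which had the most counts after *Rab14*, went the other way. The recycling means differed by less than the RFPLow SD, and the means of the remaining groups of roles by less than either SD. The 6 Rab genes with the most counts, *Rab14*, *Rab10*, *Rab1a*, *Rab5c*, *Rab2a* and *Rab6a*, held 47.3% of the 8444 Rab counts.

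**Figure D1:**
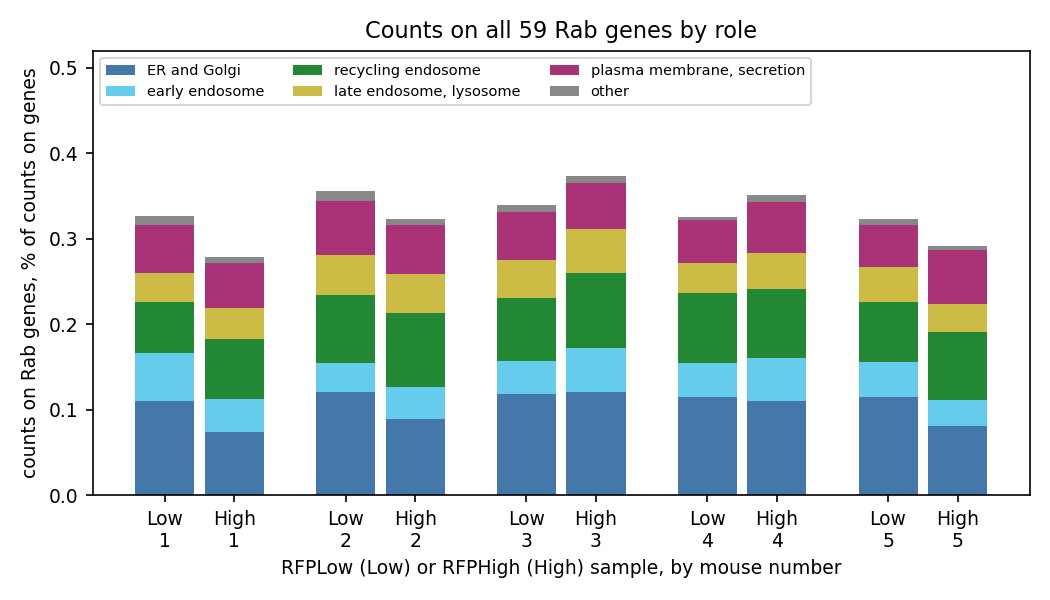
Counts on the 59 Rab genes as a percentage of the counts on genes, for the RFPLow and RFPHigh sample of each mouse, with each bar divided by the role of the Rab genes. The bars lie between 0.279% and 0.373%, and the RFPHigh bar is the higher one in mice 3 and 4 only.

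Single Rab genes were then compared with edgeR's quasi-likelihood test, with the mouse as a block and p-values adjusted by the Benjamini-Hochberg method over all 4210 genes tested. A gene was called at an adjusted p-value under 0.05. By this rule 10.1% of all genes tested were called higher in RFPHigh and 11.6% lower. Of the 20 Rab genes tested, 1 was called higher and 0 lower, or 5% and 0%. Whether these shares differ from those of all genes was not tested. At an unadjusted p-value under 0.05 the Rab genes numbered 3 higher and 1 lower, against 15.4% and 17.6% of all genes. The edgeR likelihood ratio test and limma with voom weights each called 1 Rab gene lower, *Rab18*, and DESeq2 called no Rab gene in either direction. Over all genes these 3 tools called 598, 504 and 395 lower and 503, 478 and 292 higher, in this order. In every mouse, 4 of the 20 Rab genes were higher in RFPHigh (*Rab14*, *Rab8b*, *Rab27a* and *Rab32*) and 1 was lower (*Rab18*), against 14.7% and 16.7% of all genes. The median log2 fold change of the tested Rab genes was −0.15, and that of all genes tested was −0.03. With a mouse left out the Rab median lay between −0.11 and 0.031, being above 0 without mouse 1, −0.052 without mouse 2 and −0.050 without mouse 5. The tested Rab genes lay between −0.64 for *Rab18* and 0.84 for *Rab27a*, 9 of them above 0, against 2005 of all 4210 genes tested. For 10 of the 20, the 95% interval of the log2 fold change lay between −1 and 1, so that a 2-fold change in either direction is outside it. With the added condition of an absolute log2 fold change above 1, no Rab gene was called, against 5.75% of all genes higher and 9.14% lower.

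**Figure D2:**
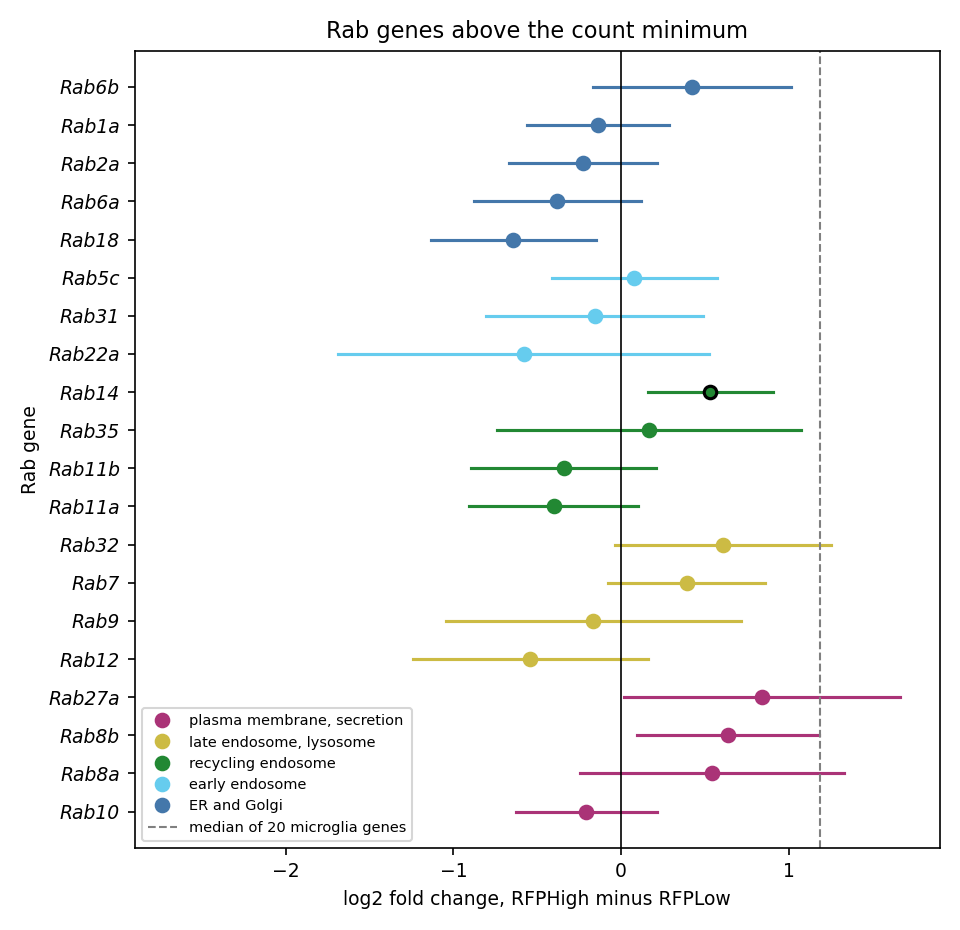
Log2 fold change of RFPHigh against RFPLow (points) with its 95% interval (lines) for the 20 Rab genes tested, coloured by role. A black rim marks an adjusted p-value under 0.05, and the dashed line is the median of the 20 microglia genes, 1.19. *Rab14* is the only gene with a rim, and all 20 points lie to the left of the dashed line.

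*Rab14*, which carries cargo between the Golgi, early endosomes and the cell surface, had the highest level of all Rab genes (ENSMUSG00000026878; GRCm38 chromosome 2, 35180205 to 35201120, minus strand). Its level was 374, 317, 378, 379 and 319 CPM in the RFPLow samples of mice 1 to 5 and 523, 547, 490, 467 and 529 CPM in the RFPHigh samples. Every RFPHigh sample was above every RFPLow sample. The mean of 354 ± 32.5 CPM in RFPLow rose to 511 ± 32.3 CPM in RFPHigh (SD, n = 5 each). On the log2 scale the fold change was 0.53 (standard error, SE, 0.18, adjusted p = 0.0381 from edgeR). Groups that did not overlap, with RFPHigh higher, were found for 2 of the 20 Rab genes, *Rab14* and *Rab27a*, and for 7.84% of all genes tested. In the opposite direction 0 Rab genes and 8.72% of all genes did not overlap. When a mouse was left out, the call was lost for mouse 2 (adjusted p = 0.143), mouse 3 (0.0832) and mouse 5 (0.0895), while the log2 fold change lay between 0.48 and 0.58 over the 5 omissions. The adjusted p lay between 0.0130 and 0.157 over all alternatives, the highest from DESeq2. Among them, scaling to the microglia genes, which moved the median of all genes by −1.09, put *Rab14* at −0.56 on the log2 scale (adjusted p = 0.0186 from edgeR).

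The other recycling Rab genes did not pass the test. *Rab11a* and *Rab11b*, which direct slow recycling through the perinuclear endosome, had log2 fold changes of −0.40 (SE 0.24, adjusted p = 0.266) and −0.34 (0.26, 0.409). *Rab11a* had 90.7, 223, 199, 219 and 176 CPM in RFPLow and 123, 156, 126, 102 and 175 CPM in RFPHigh. It was lower in RFPHigh in 4 of 5 mice, and mouse 1 differed in direction. *Rab35*, of fast recycling from the cell surface, was at 36.4 ± 9.22 and 40.5 ± 14.6 CPM (SD, n = 5 each). The 95% interval of its log2 fold change, −0.74 to 1.07, takes in 2-fold higher levels. *Rab4a* and *Rab4b*, of rapid recycling from early endosomes, had 28 and 10 counts in all and were not tested.

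Among the Rab genes of secretion and traffic to the plasma membrane, 3 of the 4 tested had a positive log2 fold change, with a median of 0.59, and 0 of them were called. This median covers 4 of the 14 members of the group. Over all 14 the summed share was 0.0551% ± 0.00567 in RFPLow and 0.0571% ± 0.00418 in RFPHigh (SD, n = 5 each). It was higher in RFPHigh in 2 of 5 mice. *Rab27a*, which docks secretory granules, lysosome-related organelles and exosome-forming bodies at the plasma membrane, had 39.7, 19.8, 21.8, 37.9 and 45.6 CPM in RFPLow. In RFPHigh it had 74.0, 47.6, 58.7, 64.5 and 46.9 CPM. The populations did not overlap, although the RFPLow sample of mouse 5 came close to its own RFPHigh sample, and the whole gene had 43 counts in RFPLow and 71 in RFPHigh. Its log2 fold change was 0.84, the highest of the tested Rab genes (SE 0.39, adjusted p = 0.143 from edgeR). *Rab27a* met the count minimum of 40.7 CPM through its RFPHigh samples, with means of 33.0 CPM in RFPLow and 58.3 CPM in RFPHigh. Its rank and the median of its group therefore rest in part on a gene admitted by the population where it is higher.

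*Rab8a* and *Rab8b* carry vesicles from the Golgi to the plasma membrane and to cilia. *Rab8b* had 51.0, 94.0, 94.5, 114 and 81.5 CPM in RFPLow and 128, 156, 113, 121 and 162 CPM in RFPHigh, and was higher in RFPHigh in 5 of 5 mice. The populations overlapped only through the RFPLow sample of mouse 4. The log2 fold change was 0.64 (SE 0.26, adjusted p = 0.0895 from edgeR). *Rab8a* had a log2 fold change of 0.54 with a wider error (SE 0.37, adjusted p = 0.345). *Rab10*, a relative of *Rab8a* and *Rab8b* in exocytosis, had 300.1 ± 79.0 CPM in RFPLow and 254 ± 20.7 CPM in RFPHigh (SD, n = 5 each), and its log2 fold change was −0.21 (adjusted p = 0.529). It shares exon sequence with *Rab10os* on the opposite strand, which had 42 counts in all. *Rab3a*, of synaptic vesicle release, missed the count minimum with 70 counts in RFPLow and 29 in RFPHigh.

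**Figure D3:**
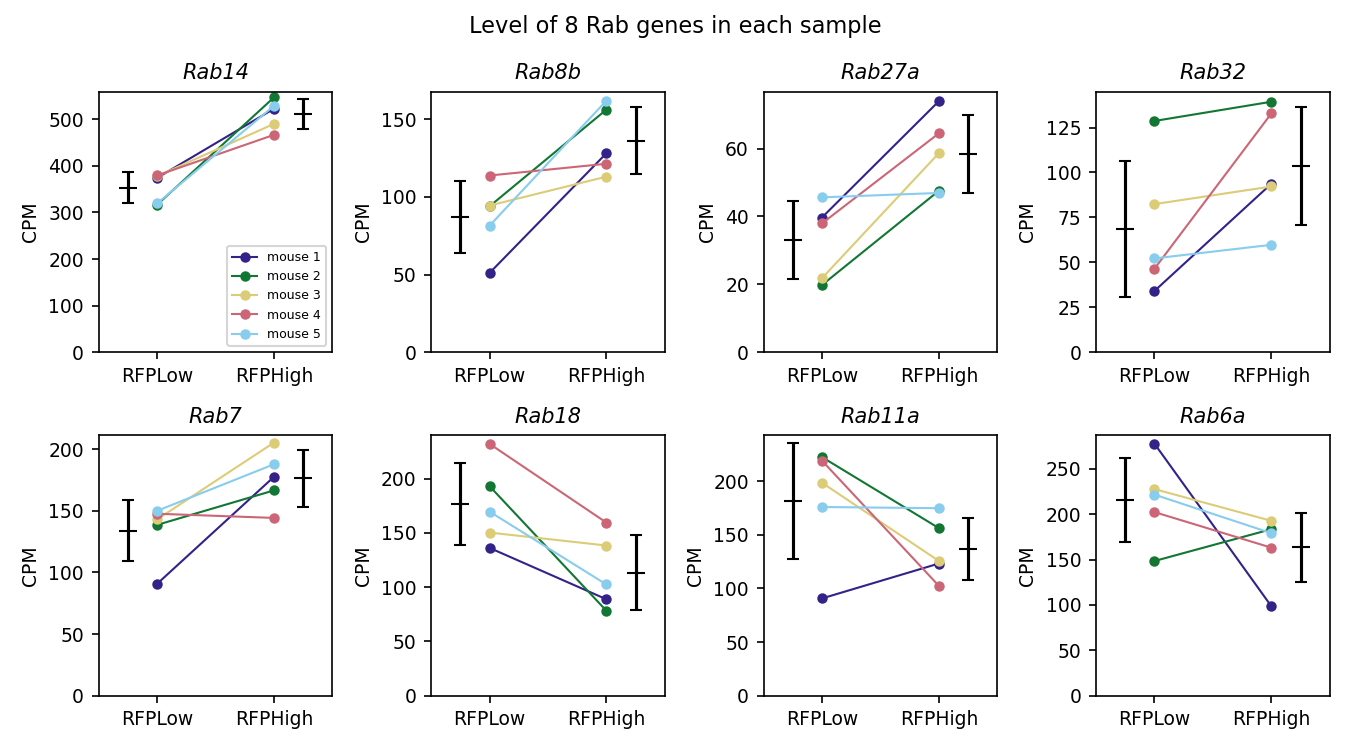
Level in CPM of 8 tested Rab genes in each sample, with a line joining the RFPLow and RFPHigh sample of each mouse and bars for the mean and SD (n = 5). *Rab14* separates the populations, *Rab8b*, *Rab27a* and *Rab32* are higher in RFPHigh in every mouse, and *Rab18* is lower in every mouse.

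The Rab genes of the late endosome and lysosome went in both directions. *Rab7*, which drives the fusion of late endosomes and phagosomes with lysosomes, had 90.7, 139, 143, 148 and 149.95 CPM in RFPLow and 178, 167, 205, 144 and 188 CPM in RFPHigh. It was higher in RFPHigh in 4 of 5 mice, and the RFPLow sample of mouse 1 stood below the other RFPLow samples. The log2 fold change was 0.39 (SE 0.22, adjusted p = 0.237 from edgeR). *Rab32*, of lysosome-related organelles, had 34.0, 129, 82.4, 46.4 and 52.2 CPM in RFPLow and 93.7, 139, 92.2, 133 and 59.7 CPM in RFPHigh. The populations overlapped widely, but within each of the 5 mice the RFPHigh sample was higher, and the log2 fold change was 0.61 (SE 0.31, adjusted p = 0.176). With a mouse left out, that of *Rab32* lay between 0.38, without mouse 4, and 0.79. *Rab12*, of receptor degradation, had −0.54 (0.33, 0.279), and *Rab9*, of the return from late endosomes to the Golgi, −0.17 (0.42, 0.838).

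Of the 5 tested Rab genes of the endoplasmic reticulum and Golgi, 4 had a negative log2 fold change, with a median of −0.23, and 0 were called. *Rab18*, found on the endoplasmic reticulum and on lipid droplets, had 136, 193, 150.2, 232 and 170 CPM in RFPLow and 88.8, 78.2, 138, 159 and 102 CPM in RFPHigh. It was lower in RFPHigh in 5 of 5 mice, as were 16.7% of all genes tested, but the populations overlapped. Its log2 fold change was −0.64 (SE 0.23, adjusted p = 0.0589 from edgeR). The adjusted p was 0.0365 with edgeR's likelihood ratio test, 0.0433 with limma and voom weights and 0.0328 with counts thinned to the smallest library, and lay between 3.30e-05 and 0.262 over all alternatives. *Rab1a*, of transport from the endoplasmic reticulum to the Golgi, had 271.1 ± 52.9 and 248.7 ± 48.9 CPM (SD, n = 5 each), and *Rab2a*, of the same step, 216 ± 36.9 and 184 ± 20.9 CPM. Their log2 fold changes were −0.14 (95% interval −0.56 to 0.29) and −0.23 (−0.67 to 0.21). With a mouse left out, these lay between −0.25 and −0.026 for *Rab1a* and between −0.33 and −0.052 for *Rab2a*.

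The early endosome genes were not called. *Rab5c*, the most abundant of the Rab5 genes that fuse early endosomes, had 195 ± 66.2 CPM in RFPLow and 203 ± 49.7 CPM in RFPHigh (SD, n = 5 each). Its log2 fold change was 0.08, with a 95% interval of −0.41 to 0.57. *Rab31* had −0.16 (SE 0.31, adjusted p = 0.781) and *Rab22a* −0.58 (0.53, 0.495), both of them related to Rab5 and acting between early endosomes and the Golgi. *Rab22a* was the least certain of the tested Rab genes, at 48.9 ± 33.5 and 30.7 ± 19.6 CPM (SD, n = 5 each). Its log2 fold change was −1.07 without mouse 2 and −0.11 without mouse 4.

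Paralogues with the same number often serve the same compartment, and the share of 1 paralogue in the counts of its pair does not depend on how libraries are scaled. All members were tested in 3 such families. In the *Rab6a* and *Rab6b* pair, which moves vesicles within and out of the Golgi, *Rab6a* made up 79.0%, 65.2%, 77.0%, 75.0% and 74.7% of the counts in RFPLow and 64.5%, 60.7%, 62.2%, 62.3% and 64.6% in RFPHigh. The populations did not overlap, and the share was lower in RFPHigh in 5 of 5 mice. The means were 74.2% ± 5.32 and 62.9% ± 1.69 (SD, n = 5 each). In a two-sided exact permutation test within mice the p-value was 0.0625, the smallest that 5 pairs allow, and 0.188 after Benjamini-Hochberg adjustment over the 3 families. The pair had 31 to 122 counts per sample. *Rab6a* had a log2 fold change of −0.38 (SE 0.24, adjusted p = 0.290 from edgeR) and *Rab6b*, the form known from neurons, 0.42 (0.28, 0.329). With a mouse left out, that of *Rab6a* lay between −0.53 and −0.11, the latter without mouse 1. *Rab6a* shares exon sequence with *Mrpl48* on the opposite strand, a gene with 49 counts in all.

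In the other 2 families the shares overlapped. *Rab11a* made up 57.7% ± 2.94 of the counts of *Rab11a* and *Rab11b* in RFPLow and 56.6% ± 11.96 in RFPHigh (SD, n = 5 each, p = 0.938 from the exact permutation test). *Rab8a* made up 35.0% ± 5.66 and 33.6% ± 5.39 of the counts of *Rab8a* and *Rab8b* (SD, n = 5 each, p = 0.938 from the exact permutation test). The *Rab8a* and *Rab8b* pair had 14 to 68 counts per sample. In the remaining families 1 paralogue held most of the counts in both populations. *Rab1a* had 684 counts against 43 for *Rab1b*, *Rab2a* 505 against 66 for *Rab2b*, *Rab5c* 508 against 52 for *Rab5b* and 16 for *Rab5a*, and *Rab7* 400 against 23 for *Rab7b*.

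**Figure D4:**
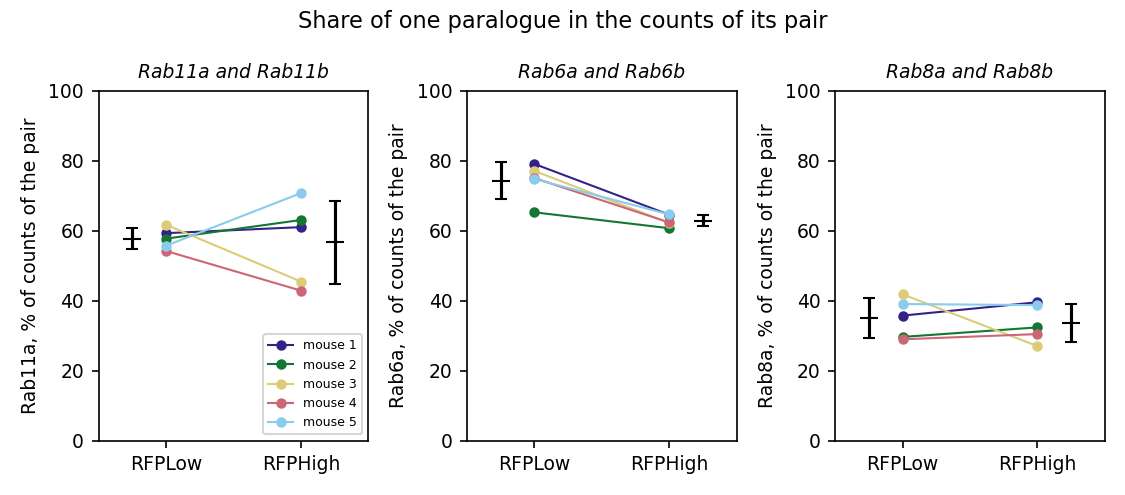
Share of *Rab11a*, *Rab6a* and *Rab8a* in the counts of their pairs, in percent, in the RFPLow and RFPHigh sample of each mouse, with bars for the mean and SD (n = 5). The *Rab6a* share is lower in RFPHigh in every mouse, at 60.7% to 64.6% against 65.2% to 79.0% in RFPLow, while the other shares overlap.

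The remaining 39 Rab genes lay under the count minimum and held 14.2% of the Rab counts. The minimum asks for 40.7 CPM or more, before TMM scaling, in at least 5 samples, and *Rab35*, with 97 counts in all, passed it, while *Rab33b* (101), *Rab3a* (99), *Rab21* (86), *Rab40c* (85) and *Rab39* (83) did not. Of the 39 genes, 26 had 10 or more counts, 10 had fewer and 3 had 0. In a second edgeR quasi-likelihood fit to all 18571 genes with at least 1 count, 2.48% of genes were called higher and 4.49% lower, and 0 of the 56 Rab genes were called. At an unadjusted p-value under 0.05 there were 4 Rab genes higher and 4 lower in this fit, against 5.28% and 8.98% of all genes. No other tool was run on all of these genes.

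Of the Rab genes under the count minimum, 3 had an unadjusted p-value under 0.05 in the second fit, all of them lower in RFPHigh. *Rab3a* had 9, 8, 31, 14 and 8 counts in RFPLow and 4, 5, 3, 10 and 7 in RFPHigh, and a log2 fold change of −0.99 (adjusted p = 0.296). *Rab30*, of the Golgi, had 6, 3, 8, 4 and 4 counts in RFPLow and 0, 0, 3, 3 and 0 in RFPHigh, with −2.01 (adjusted p = 0.259). *Rab34*, which acts in the positioning of lysosomes and in ciliogenesis, had 4, 5, 10, 3 and 12 counts in RFPLow and 0, 4, 1, 8 and 0 in RFPHigh, with −1.46 (adjusted p = 0.335). None of these passed the adjustment, and of the 3 only *Rab30* was lower in RFPHigh in 5 of 5 mice.

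*Rab20*, of endosome and phagosome maturation, had 16 counts in RFPLow and 36 in RFPHigh, of which 25 came from mice 1 and 4 (log2 fold change 1.14, adjusted p = 0.458). *Rab39*, of phagosome acidification, had 33 and 50 counts (0.81, 0.555). *Rab24*, of autophagosomes, had 38 and 16 counts (−1.25, 0.371) and *Rab29*, of the Golgi and lysosome, 30 and 13 (−1.18, 0.564). *Rab33b*, of Golgi transport and autophagy, had 66 and 35 (−0.69, 0.659).

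The rest are given by their counts alone. Between 10 and 86 counts in all were found for *Rab21*, *Rab40c*, *Rab2b*, *Rab28*, *Rab5b*, *Rab1b*, *Rab23*, *Rab43*, *Rab3d*, *Rab4a*, *Rab3c*, *Rab7b*, *Rab39b*, *Rab5a*, *Rab36*, *Rab42*, *Rab4b* and *Rab15*. *Rab13*, *Rab33a*, *Rab37*, *Rab9b*, *Rab25*, *Rab27b*, *Rab19*, *Rab26*, *Rab40b* and *Rab3b* had 1 to 7 counts. *Rab33a* had 7 counts in RFPLow, or 5.23 CPM over the group, and 0 in RFPHigh, which allows up to 3 counts or 2.44 CPM. *Rab17* and *Rab25*, known from epithelia, had 0 and 3 counts, and *Rab38*, of pigment granules, and *Rab44*, of mast cell granules, had 0. A count of 0 among the 2565980 counts of the 10 samples allows up to 1.17 CPM.

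Because microglia genes took a larger share of the RFPHigh counts, the Rab genes were also compared relative to them. The 20 microglia genes, among them *P2ry12*, *Cx3cr1* and *Tmem119*, had a median log2 fold change of 1.19, and 19 were called higher. With library sizes taken from these genes, the median of all genes moved by −1.09, and 71.9% of all genes tested were called lower and 0.261% higher. All 20 Rab genes then had a log2 fold change below 0, with a median of −1.24 against −1.12 for all genes, and 14 of them were called lower. On this scale *Rab14* had −0.56 (adjusted p = 0.0186 from edgeR), so that it rose by less than the microglia genes. *Rab27a* (−0.23, adjusted p = 0.593), *Rab8b* (−0.45, 0.171), *Rab32* (−0.49, 0.179), *Rab8a* (−0.53, 0.236), *Rab6b* (−0.67, 0.0504) and *Rab35* (−0.93, 0.0542) were not called lower. *Rab18* had the most negative value, −1.74 (adjusted p = 3.30e-05).

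The proteins that act on Rab GTPases were described from a list of 129 genes, of which 47 were tested. Of these, 2 were called higher in RFPHigh and 1 lower, against 10.1% and 11.6% of all genes, and the median log2 fold change was 0.25. Both genes called higher were GEFs. *Rin2*, a GEF of Rab5, had 130.4, 79.2, 82.4, 80.1 and 143 CPM in RFPLow and 266, 204, 197, 197 and 252 CPM in RFPHigh. The populations did not overlap, and its log2 fold change was 1.13 (SE 0.22, adjusted p = 7.69e-04 from edgeR). *Rab3il1*, a GEF of Rab8, had 36.5 ± 19.1 CPM in RFPLow and rose to 106 ± 23.5 CPM in RFPHigh (SD, n = 5 each), with no overlap. The log2 fold change was 1.54 (SE 0.39, adjusted p = 0.00743). *Rab3il1* met the count minimum of 40.7 CPM through its RFPHigh samples, at 67.0 to 126 CPM, with RFPLow samples at 4.22 to 51.0 CPM. It was therefore admitted by the population where it is higher. Relative to the microglia genes neither was called higher. On that scale 0 of the 47 genes were called higher and 23 lower, against 0.261% and 71.9% of all genes tested.

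Of the 9 escort and recycling factors, 6 were tested and 4 of these had a negative log2 fold change, with a median of −0.67. *Arl6ip5*, a membrane protein of the prenylated Rab acceptor family, fell from 136 ± 51.0 to 68.5 ± 18.5 CPM (SD, n = 5 each), without overlap. Its log2 fold change was −0.98 (SE 0.28, adjusted p = 0.0156 from edgeR), and it was not called by DESeq2 or without mouse 2. *Rabac1* of the same family, at −0.63 (SE 0.23, adjusted p = 0.0642), was lower in RFPHigh in 5 of 5 mice without being called. Of the 9 GAPs tested, 8 had a positive log2 fold change, with a median of 0.37, and of the 15 effectors tested 9 did, with a median of 0.32. Of all 4210 genes tested, 2005 had a positive and 2205 a negative log2 fold change. Some of these GAPs had RFPLow means under the count minimum of 40.7 CPM, among them *Tbc1d9b*, with 38.5 CPM in RFPLow and 61.2 CPM in RFPHigh. None of the GAPs or effectors was called by edgeR's quasi-likelihood or likelihood ratio test, DESeq2 or limma, and at an unadjusted p-value under 0.05 there were 1 GAP and 1 effector higher and 1 effector lower. By the same rule 0 escort factors were higher and 3 lower, and 4 GEFs were higher and 1 lower, against 15.4% and 17.6% of all genes. Of the 26 Arf and Arl genes, small GTPases of vesicle budding and organelle movement, 9 were tested, with a median log2 fold change of −0.02. Of these 1 was called, *Arl4c*, higher in RFPHigh at 1.30 (SE 0.24, adjusted p = 5.97e-04), against 10.1% of all genes tested.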

How the data were processed

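Bulk 3′ RNA sequencing of 10 samples was used. The authors made QuantSeq 3′ FWD libraries and processed them with the Lexogen FWD UMI pipeline, and deposited unnormalized counts per Ensembl gene. Whether molecular identifiers were collapsed is not given in the sources used here. The processing notes name mm10, which the methods give for the single-cell data, and the build of the bulk counts is not given in the sources used here. Whether strand was used in counting is not given in the sources used here, so overlapping genes (7 of the tested Rab genes share exon sequence with another gene) may not be told apart. Symbols were found for 47224 of 47643 identifiers in GENCODE M21 on GRCm38. Counts on no gene (32.1% to 48.6% of all counts) and ambiguous counts (0.295% to 0.436%) were left out of library sizes.

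Counts were fitted with edgeR 4.0.16 in R 4.3.3 (TMM scaling, quasi-likelihood test, mouse as a block, Benjamini-Hochberg adjustment). The methods used edgeR's likelihood ratio test adjusted for mouse and a log2 fold change above 1 in size, and both were tried as alternatives. A gene was tested with at least 10 counts at the median library size in 5 samples and 15 counts in all. CPM values of genes in single samples and their means are TMM-scaled. The count minimum, the worth of 1 count, the limits for a count of 0, the *Rab33a* level over a group and shares of counts are not. Standard errors come from the F statistic. The pairing comes from the labels, which give a mouse number. The correlations of deviations within mice were 0.22, −0.04, 0.14, −0.01 and 0.02. On simulated counts for this comparison (4347 genes in the fit), 40 of 92 genes with a 2-fold change were called (43.5%), 3 of 94 with a 1.5-fold change (3.20%) and 1 of 4161 unchanged genes. Only 200 genes were changed in the simulation, fewer than the 427 called higher and 489 called lower in the data. The adjustment was therefore stricter there, and the simulated call rates may lie below those of the real comparison.

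Alternatives were median-of-ratios scaling, library size alone, scaling to 20 microglia genes, 2 other count filters, the likelihood ratio test, DESeq2 1.42.0, limma 3.58.1 with voom, no block, each mouse left out, thinning to 177287 counts, totals that include counts on no gene (for the summed Rab share) and a fold change threshold. The Rab genes, gene lists and markers were chosen with earlier results of these data known. Every tested Rab gene is named, other Rab genes are given by counts, and of the regulators those called. The 8 genes plotted by sample, the members under the minimum given with their fold change, and *Rabac1* were picked after their values were seen, as were the promoters printed. Single shares were compared by exact permutation within mice. Limits for a count of 0 cover counting error only.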

Additional observations from a re-analysis of the deposited data

Results flagged for a closer look

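Samples were examined for values that stand apart within a population, in 48 groups of 5 values (the 20 tested Rab genes, 3 paralogue shares and the summed Rab share), where about 2.4 would do so by chance and 2 did. The RFPHigh sample of mouse 5 had 290.1 CPM of *Rab10*, against 242 to 251 CPM in the other RFPHigh samples. The RFPLow sample of mouse 1 had 90.73 CPM of *Rab7*, against 139 to 149.95 CPM in the other RFPLow samples. Without mouse 1, the log2 fold change of *Rab7* remained above 0, and the values over the 5 omissions lay between 0.31 and 0.48.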

How the results depend on the processing

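The number of Rab genes called depended on the setting. The 1 Rab gene called higher became 0 when scaled to the microglia genes, with every gene of at least 1 count, with DESeq2, with thinned counts and with the fold change threshold, and 0 to 1 with a mouse left out. The number called lower, 0, became 14 when scaled to the microglia genes, 1 with the likelihood ratio test, limma or thinned counts, and stayed 0 with a mouse left out. The median Rab log2 fold change of −0.15 became −1.24 when scaled to the microglia genes, and lay between −0.11 and 0.031 with a mouse left out, being above 0 without mouse 1. Over all genes, 427 were called higher and 489 lower. These became 11 and 3026 when scaled to the microglia genes, 242 higher with the fold change threshold, and 834 lower with every gene of at least 1 count. The likelihood ratio test, limma and thinned counts called 598, 504 and 403 of all genes lower. DESeq2 and thinned counts called 292 and 350 higher. With a mouse left out they lay between 306 and 435, and 349 and 488.

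Scaling to the microglia genes moved the median of all genes by −1.09 and left 203 of 4210 genes above 0, so that a sign that turns there reflects this common shift. The 9 Rab genes above 0 reversed: *Rab14* (−0.56), *Rab27a* (−0.23), *Rab32* (−0.49), *Rab35* (−0.93), *Rab5c* (−1.01), *Rab6b* (−0.67), *Rab7* (−0.70), *Rab8a* (−0.53) and *Rab8b* (−0.45). With a mouse left out, the sign was not stable for *Rab31* (−0.42 to 0.063), *Rab35* (−0.055 to 0.40), *Rab5c* (−0.052 to 0.31) and *Rab9* (−0.39 to 0.18). The sign held but the size varied for *Rab10* (−0.32 to −0.061), *Rab11a* (−0.52 to −0.24), *Rab11b* (−0.53 to −0.19), *Rab12* (−0.83 to −0.42) and *Rab8a* (0.38 to 0.88). The same was found for *Rab6a*, *Rab22a*, *Rab32*, *Rab1a* and *Rab2a*, as given above. Of 293 recomputed log2 fold changes of tested Rab genes, 257 kept direction and side of the threshold, 16 reversed, 14 passed it newly and 6, all of *Rab14*, no longer passed.

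For regulators and effectors, 2 called higher became 0 when scaled to the microglia genes and lay between 2 and 4 with a mouse left out. Their 1 called lower became 23 when scaled to the microglia genes, 5 with every gene of at least 1 count, 2 with a minimum of 5 counts, the likelihood ratio test or limma, and 0 with DESeq2 or the fold change threshold, and 0 to 1 with a mouse left out (0 without mouse 2). For Arf and Arl genes, 1 called higher became 0 when scaled to the microglia genes and 2 with every gene of at least 1 count. Their 0 called lower became 7 when scaled to the microglia genes, 1 with either lower count filter, and 0 to 1 with a mouse left out. On the scale of the microglia genes, 71.9% of all genes tested were called lower.

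Without the mouse as a replicate block, 435 genes were called higher and 482 lower, with 1 Rab gene higher (*Rab14*, adjusted p = 0.0252 from edgeR) and 0 lower, and no call of a Rab gene changed. The difference in the *Rab6a* share lay between −13.05 and −10.46 percentage points with any mouse left out, while the differences in the *Rab11a* share (−5.12 to 2.69 percentage points) and the *Rab8a* share (−2.72 to 1.93) changed sign. Causes were not tested beyond what each setting removes or adds. At the depth, spread and number of mice of these samples, 3 of 94 simulated 1.5-fold changes were called. With only 200 genes changed, the simulation had a stricter adjustment than the data, so this rate may be too low for the real comparison.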
